A study of Mus musculus with 8 samples.

Results

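The interferon genes described here are 39 mouse genes in 2 arms, 22 known as targets or factors of the type I interferon response and 17 known as targets, factors or receptors of the interferon gamma response. The rule for membership is the gene symbol. The platform annotation named 38 of the 39, with 21 in the type I arm and 17 in the gamma arm, out of 20736 gene annotations tested in all. Ifi44, of the type I arm, was not analysed here. Where several probe sets named a gene, the one with the highest mean over the 8 arrays stood for it. For 6 members that probe set also names other genes, so its value cannot be divided between them: Isg15 shares it with Gm9706, Gbp2 with Gbp2b, Gbp6 with Gbp4, Gbp8, Gbp9, Gbp10 and Gbp11, Igtp with Irgm2, Tgtp1 with Tgtp2, and Ifi47 with Olfr56.

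The arrays compare hemophagocytes, macrophages that hold engulfed blood cells, with resting macrophages, both taken from the spleens of wild type male C57Bl/6j mice aged 8 weeks (4 arrays each). Hemophagocytes came from mice given 4 intraperitoneal doses on alternate days of 37.5 ug CpG1826, an oligonucleotide that activates Toll-like receptor 9, with 200 ug of the antibody 1B1.3A, which blocks the IL-10 receptor. Resting macrophages came from mice given 200 uL PBS on the same schedule. Laser capture took 20 cells per mouse, which were pooled, and treated mice gave no arrays of macrophages without engulfed cells, so engulfment and treatment cannot be told apart.

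Type I interferons bind a receptor of Ifnar1 and Ifnar2 and activate a complex that holds Stat2 and Irf9 and binds the interferon-stimulated response element (ISRE) of antiviral genes. Interferon gamma binds Ifngr1 and Ifngr2 and acts through the gamma-activated site (GAS) of genes for guanylate-binding proteins, immunity-related GTPases and antigen presentation. Interferon gamma is known as a driver of hemophagocytic disease in mice and of macrophage activation in the spleen. The comparison asks how far these genes set hemophagocytes apart from resting macrophages.

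The promoters of many members share sequence features. The choice by symbol did not read these sequences, but the members were chosen as known interferon genes. A share of ISRE or GAS cores above that of all genes is therefore not independent of the choice. RefSeq promoter windows (GRCm38.p6, 250 bases before to 50 after the transcript start) were given for 29 of the 38 measured members. The core bound by interferon regulatory factors within the ISRE, searched as GAAANNGAA on both strands, was found for 10 of 16 type I genes (62.5%) and 8 of 13 gamma genes (61.5%), against 9.76% of all 27025 genes with a window. The GAS core, searched as TTCNNNGAA, which reads alike on both strands, was found for 3 of 16 type I genes (18.8%) and 6 of 13 gamma genes (46.2%), against 9.55% of all genes. Matches to the 2 cores overlapped in 1 window, that of Bst2. Windows are shown for 6 members whose array values are described one by one further on. An unadjusted p under 0.05 (Isg15, Irf7, Gbp7) or high values on single hemophagocyte arrays (Ifit1, Bst2, Gbp2) set them apart. The window of Oasl1, also at an unadjusted p under 0.05, held neither core and is not shown. Each is cut to a stretch of 200 bases, 5′ to 3′ on the gene's strand, with matches to either core in capitals. They lie at chr4:156200769-156200968, minus strand (Isg15), chr19:34640739-34640938, plus strand (Ifit1), chr8:71537423-71537622, minus strand (Bst2), chr3:142620513-142620712, plus strand (Gbp2), chr3:142530186-142530385, plus strand (Gbp7) and chr7:141266375-141266574, minus strand (Irf7).
Isg15: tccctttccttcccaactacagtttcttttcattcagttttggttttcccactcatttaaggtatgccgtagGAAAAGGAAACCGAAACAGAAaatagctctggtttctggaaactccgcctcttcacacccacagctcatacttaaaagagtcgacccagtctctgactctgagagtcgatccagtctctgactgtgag
Ifit1: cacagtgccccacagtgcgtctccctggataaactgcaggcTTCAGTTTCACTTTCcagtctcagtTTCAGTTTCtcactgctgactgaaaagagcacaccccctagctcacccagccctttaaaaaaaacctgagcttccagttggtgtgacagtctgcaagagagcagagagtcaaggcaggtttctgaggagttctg
Bst2: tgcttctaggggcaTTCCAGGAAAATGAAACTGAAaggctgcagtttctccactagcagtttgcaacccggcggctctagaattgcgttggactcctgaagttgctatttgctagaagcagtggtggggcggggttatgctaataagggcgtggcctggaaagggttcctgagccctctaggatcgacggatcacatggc
Gbp2: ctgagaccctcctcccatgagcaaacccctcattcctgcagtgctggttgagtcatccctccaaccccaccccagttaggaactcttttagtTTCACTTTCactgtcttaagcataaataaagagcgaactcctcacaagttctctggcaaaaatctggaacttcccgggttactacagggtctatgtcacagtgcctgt
Gbp7: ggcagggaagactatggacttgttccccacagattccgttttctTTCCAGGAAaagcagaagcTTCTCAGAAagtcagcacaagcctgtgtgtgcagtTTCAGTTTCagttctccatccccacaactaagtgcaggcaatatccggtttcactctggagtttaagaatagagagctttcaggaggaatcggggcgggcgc
Irf7: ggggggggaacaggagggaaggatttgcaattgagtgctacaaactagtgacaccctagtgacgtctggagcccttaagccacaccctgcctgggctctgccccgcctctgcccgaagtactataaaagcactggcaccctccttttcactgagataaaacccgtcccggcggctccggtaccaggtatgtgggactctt

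Isg15 and Ifit1 hold 3 interferon regulatory factor cores each, Bst2 holds 2 with 1 GAS core, Gbp7 holds 1 with 2 GAS cores, Gbp2 holds 1 and no GAS core, and Irf7 holds neither. A match is a run of letters and was not tested as a binding site.

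All levels are log2 array values and all changes are log2 differences, hemophagocyte minus resting macrophage. As a measure of brightness without expression, 1194 olfactory and vomeronasal receptor genes, which are genes of sensory neurons, averaged 5.75 to 6.07 on hemophagocyte arrays and 5.99 to 6.16 on resting arrays. Their 95th percentile was 7.42 to 7.72 on hemophagocyte arrays and 7.69 to 7.81 on resting arrays. Of 19 measured macrophage markers, 13 exceeded that percentile on no array and 0 on all 8. The count above it was 1, 5, 6 and 0 on hemophagocytes 2, 3, 5 and 6, and 0 to 2 on resting arrays, and the list's mean level was 6.43 to 7.38 on hemophagocyte and 6.61 to 6.72 on resting arrays. Changes of the 19 ran from -0.40 (Lyz2) to 1.34 (Cd68), with 11 above 0. Cd68, a lysosomal macrophage protein, was 9.66 on hemophagocyte 3 and 10.52 on hemophagocyte 5, with every other array at 7.21 to 7.50. Of 8 neutrophil markers, 2 exceeded the percentile on hemophagocyte 3, 1 on hemophagocyte 2 and 0 elsewhere. None of the markers of B cells, T cells, plasma cells, NK cells or plasmacytoid dendritic cells (0 of 6, 5, 5, 6 and 7 measured) exceeded the percentile on any array. Of 7 conventional dendritic cell markers, 1 (Ccr7) exceeded it on all 8 arrays and the other 6 on none. Of 4 erythroid markers, the globins Hba-a1 and Hbb-b1 exceeded it on every array except hemophagocyte 2, where they were 6.06 and 5.85. In pooled cells, fewer cells of a type and less RNA per cell cannot be told apart.

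Most interferon genes lay within the range of the receptor genes in both groups. The number of members above the 95th percentile was 2, 4, 3 and 1 of 38 on hemophagocytes 2, 3, 5 and 6, and 1 or 2 of 38 on each resting array. Nlrc5, a transactivator of MHC class I genes, was the 1 member above it on all 8 arrays, at 9.21 ± 0.19 in hemophagocytes and 9.21 ± 0.10 in resting macrophages (mean ± SD, n = 4 each). These values are from the brightest of 19 probe sets that name Nlrc5, whose hemophagocyte means ran from 4.72 to 9.21. The 19 had changes of -0.22 to 0.31, with a median of -0.02. At the other end, the RNA sensor Ifih1 stood at 4.62 ± 0.04 in hemophagocytes and 4.65 ± 0.10 in resting macrophages, below the receptor mean on every array. For members so close to these receptor genes, a level does not show whether the transcript was present.

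**Figure D1:**
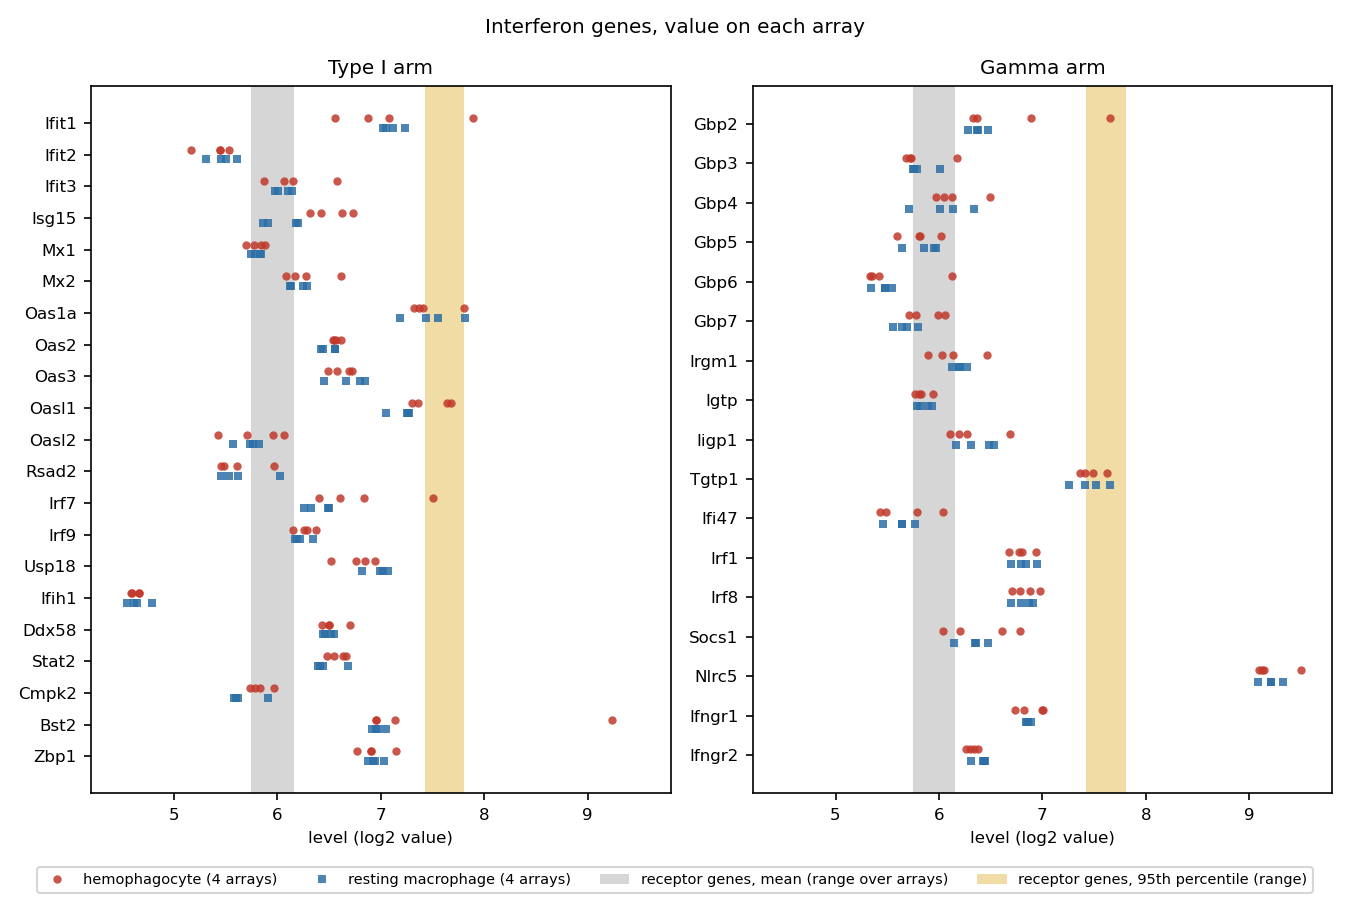
Log2 value of each of the 38 interferon genes on each array, with hemophagocyte arrays as circles above resting macrophage arrays as squares. The grey and yellow bands give the range over arrays of the mean and the 95th percentile of 1194 receptor genes. Only Nlrc5, by the brightest of its 19 probe sets, lies beyond the yellow band on all 8 arrays.

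No interferon gene passed the threshold. In limma, 0 of 38 members had an adjusted p under 0.05 over all features, against 0.0193% of features (4 of 20736), and the smallest was adjusted p = 0.74. At an unadjusted p under 0.05, 3 type I members and 1 gamma member were higher, 4 of 38 in all, against 1.57% of features. None of the members (0 of 38) was lower at that level, against 5.13% of features. The 4 were Isg15, Oasl1 and Irf7 of the type I arm and Gbp7 of the gamma arm. The lowest hemophagocyte value exceeded the highest resting value in 2 members, Isg15 and Oasl1, against 0.815% of features, and the reverse held in 0 members, against 2.98%.

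The arms had similar medians. The median change was 0.04 in the type I arm and 0.01 in the gamma arm, beside -0.04 over all features. Changes above 0 were found in 12 of 21 type I members (57.1%) and 10 of 17 gamma members (58.8%), against 36% of features. That share of features moved with the scaling of the arrays, to 45.2% after quantile normalization, 46.0% after median centring and 50.8% after cyclic loess. The members moved with it: 16, 17 and 18 of 21 type I members and 11, 13 and 13 of 17 gamma members were above 0 under those scalings. Features at an unadjusted p under 0.05 numbered 325 higher and 1063 lower as deposited, and 512 and 793, 520 and 728, and 640 and 576 under those scalings. The 3 type I members and the 1 gamma member were counted as higher, and 0 as lower, under each of them. Members ranged from -0.20 to 0.60 in the type I arm and from -0.09 to 0.43 in the gamma arm. Single arrays moved both medians to the other side of 0. Without hemophagocyte 5 they were -0.02 in each arm, beside -0.04 over all features in the same fit, and without resting macrophage 4 the gamma median was -0.01.

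**Figure D2:**
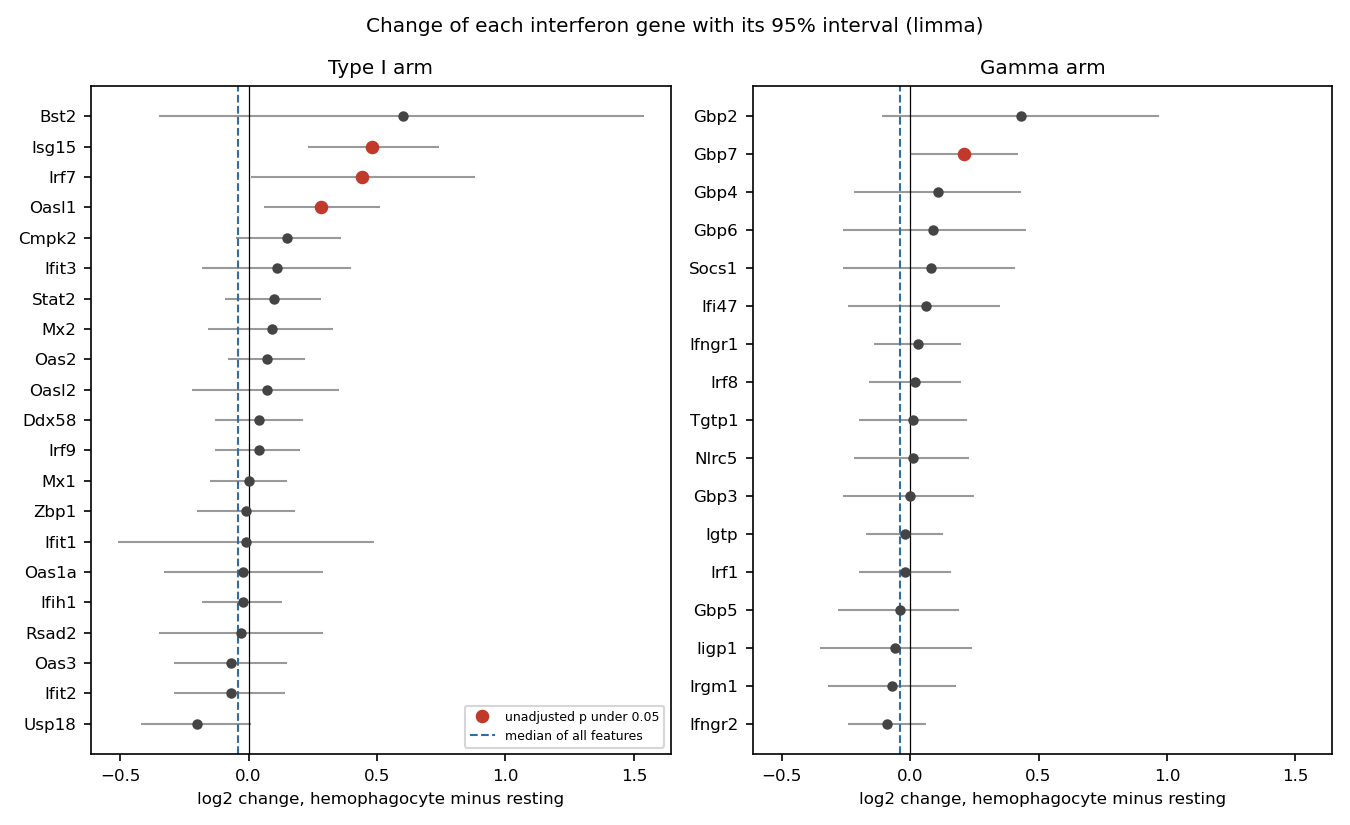
Log2 change of each interferon gene, hemophagocyte minus resting macrophage, with its 95% interval from limma, ordered by size within each arm. Red points mark Isg15, Oasl1, Irf7 and Gbp7, at an unadjusted p under 0.05, and the dashed line is the median of all features, -0.04.

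Among the effectors of the type I arm, Isg15, a ubiquitin-like protein that is attached to other proteins during the interferon response, was higher on every hemophagocyte array. It stood at 6.31, 6.42, 6.62 and 6.73 on hemophagocytes 2, 3, 5 and 6, and at 5.91, 5.86, 6.20 and 6.18 on resting macrophages 3, 4, 5 and 6. The groups did not overlap; hemophagocyte 2 had the lowest value of its group. The change was 0.48 (SE 0.11, 1.40-fold, 95% interval 0.23 to 0.74), with limma's unadjusted p = 0.00157 and adjusted p = 0.74 over all features. Over 19 alternative settings the change ran from 0.42 to 0.62 with an unadjusted p of 0.000642 to 0.00782. Usp18, the protease that removes Isg15 from proteins and restrains the type I receptor, did not separate the groups. It stood at 6.94, 6.52, 6.85 and 6.76 in hemophagocytes, and at 6.82, 7.02, 6.99 and 7.07 in resting macrophages. Its groups overlapped, and its change of -0.20 (SE 0.10, unadjusted p = 0.0639) did not pass. With 1 array left out at a time the change of Usp18 ran from -0.26 to -0.12. With the receptor mean as a covariate it was -0.06.

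The oligoadenylate synthetase family, which makes the second messenger that activates RNase L, was split. Oasl1, a family member without that enzyme activity that restrains Irf7 translation in mice, stood at 7.68, 7.64, 7.30 and 7.36 in hemophagocytes 2, 3, 5 and 6, and at 7.25, 7.27, 7.05 and 7.26 in resting macrophages 3, 4, 5 and 6. The groups were apart by a narrow margin, between 7.30 on hemophagocyte 5 and 7.27 on resting macrophage 4. Its change was 0.28 (SE 0.10, 1.22-fold, unadjusted p = 0.0185, adjusted p = 0.74), and was 0.15 (unadjusted p = 0.197) with the receptor mean as a covariate. The unadjusted p was under 0.05 in 16 of 20 alternative settings, the others being this fit and those without hemophagocyte 2, hemophagocyte 3 or resting macrophage 5. The other 4 members had changes of 0.07 (Oas2 and Oasl2), -0.02 (Oas1a) and -0.07 (Oas3), and none of these 4 had an unadjusted p under 0.05. The dimmer probe set of Oas1a, which also names Oas1g, had a change of 0.08.

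The IFIT proteins, which bind viral RNA, and the Mx proteins, GTPases that block viruses, were highest on hemophagocyte 5 in 4 of 5 genes. Of all features, 9.92% were highest on that array. Ifit1 stood at 6.88, 6.56, 7.89 and 7.08 on hemophagocytes 2, 3, 5 and 6, and at 7.05, 7.02, 7.23 and 7.12 on the resting arrays. Hemophagocyte 5 was the highest and hemophagocyte 3 the lowest of the 8 arrays, so that the group mean of 7.10 ± 0.57 was next to that of resting macrophages, 7.11 ± 0.09, and the 95% interval of the change was -0.51 to 0.49. Ifit3 reached 6.58 on hemophagocyte 5, against 5.87 to 6.15 on the other hemophagocytes and 5.98 to 6.14 on the resting arrays. Mx2 reached 6.61 on that array, against 6.08 to 6.28 on the other hemophagocytes and 6.12 to 6.29 on the resting arrays. Mx1 averaged 5.80 ± 0.08 in hemophagocytes and 5.80 ± 0.05 in resting macrophages, with hemophagocyte 5 at 5.88 and all arrays within a narrow range. Ifit2 had a change of -0.07, and its highest array was resting macrophage 5.

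Rsad2 and Cmpk2, neighbouring genes whose enzymes make antiviral nucleotides, did not separate the groups. Cmpk2 stood at 5.97, 5.78, 5.73 and 5.83 in hemophagocytes and at 5.62, 5.91, 5.60 and 5.58 in resting macrophages. Only resting macrophage 4 lay among the hemophagocytes, and the change of 0.15 (SE 0.09, unadjusted p = 0.125) did not pass. Rsad2 had a change of -0.03 (95% interval -0.35 to 0.29), with its highest value of 6.02 on resting macrophage 6. Bst2, a membrane protein that tethers budding viruses, had the largest change of the 38 members, 0.60 (SE 0.43, unadjusted p = 0.192), and 1 array decided it. It stood at 6.95, 9.23, 7.14 and 6.95 in hemophagocytes 2, 3, 5 and 6, and at 6.95, 6.97, 7.05 and 6.91 in resting macrophages. Without hemophagocyte 3 the change was 0.04.

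Of the sensors and factors of the type I arm, Irf7, the factor that sustains type I interferon transcription, stood out on hemophagocyte 5. It stood at 6.40, 6.84, 7.50 and 6.60 in hemophagocytes and at 6.50, 6.26, 6.32 and 6.49 in resting macrophages. Hemophagocyte 2 lay inside the resting range and the other 3 above it, and the change was 0.44 (SE 0.20, 1.36-fold, unadjusted p = 0.0467, adjusted p = 0.74). It was 0.22 (unadjusted p = 0.0814) without hemophagocyte 5 and 0.11 (unadjusted p = 0.335) without hemophagocytes 3 and 5. Stat2 and Irf9, which belong to the type I complex, had changes of 0.10 (95% interval -0.09 to 0.28) and 0.04 (-0.13 to 0.20). The RNA sensors Ddx58 and Ifih1 and the nucleic acid sensor Zbp1 had changes of 0.04, -0.02 and -0.01, and hemophagocyte and resting ranges overlapped in each.

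In the gamma arm, the guanylate-binding proteins, GTPases that attack the vacuoles of intracellular pathogens, held the only member at an unadjusted p under 0.05. Gbp7 stood at 5.99, 5.78, 5.71 and 6.06 in hemophagocytes and at 5.69, 5.56, 5.64 and 5.80 in resting macrophages. Hemophagocytes 3 and 5 overlapped with the resting arrays, and the change was 0.21 (SE 0.09, 1.16-fold, unadjusted p = 0.0493, adjusted p = 0.74). The unadjusted p was under 0.05 in 11 of 19 alternative settings and at most 0.163 in the others. Gbp2 had the largest change of the arm, 0.43 (SE 0.24, unadjusted p = 0.104). It stood at 6.37, 7.65, 6.89 and 6.33 in hemophagocytes, and at 6.47, 6.38, 6.37 and 6.28 in resting macrophages, so that hemophagocytes 3 and 5 were high and the other 2 were within the resting range. Its change was 0.15 without hemophagocyte 3, where that of Gbp7 was 0.25, and 0.03 with the receptor mean as a covariate. The probe set for Gbp6 stood at 5.42, 5.35, 6.13 and 5.33 in hemophagocytes and at 5.48, 5.34, 5.55 and 5.48 in resting macrophages, with hemophagocyte 5 alone above the rest. Gbp4 stood at 6.13, 5.97, 6.49 and 6.05 in hemophagocytes and at 6.14, 6.01, 6.34 and 5.71 in resting macrophages, which overlapped. Gbp3 and Gbp5 had changes of -0.00 and -0.04, and in both the highest of the 8 arrays was hemophagocyte 5, at 6.17 and 6.02.

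The immunity-related GTPases, which act on pathogen vacuoles with the guanylate-binding proteins, did not separate the groups. Their 5 changes were 0.06 (Ifi47), 0.01 (Tgtp1), -0.02 (Igtp), -0.06 (Iigp1) and -0.07 (Irgm1). Irgm1, a regulator of the family and of autophagy, stood at 5.89, 6.03, 6.14 and 6.46 in hemophagocytes and at 6.19, 6.20, 6.27 and 6.13 in resting macrophages. The hemophagocyte arrays spread to both sides of the resting arrays, and the 95% interval of the change was -0.32 to 0.18. Irf1, the factor that carries much of the gamma response, and Irf8, a myeloid factor, had changes of -0.02 (95% interval -0.20 to 0.16) and 0.02 (-0.16 to 0.20). Socs1, which inhibits the kinases of both receptors, stood at 6.78, 6.61, 6.04 and 6.20 in hemophagocytes and at 6.47, 6.35, 6.36 and 6.15 in resting macrophages, and was thus low on the array where Irf7 and Ifit1 were high. The receptor chains Ifngr1 and Ifngr2 had changes of 0.03 (95% interval -0.14 to 0.20) and -0.09 (-0.24 to 0.06). Ifngr2 stood at 6.30, 6.26, 6.38 and 6.34 in hemophagocytes and at 6.45, 6.44, 6.31 and 6.43 in resting macrophages.

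High values were spread unequally over the hemophagocyte arrays. On hemophagocyte 5, 18 of 21 type I members and 10 of 17 gamma members lay above their own median of the 8 arrays, against 44.5% of all features. On hemophagocytes 2, 3 and 6 the counts were 9, 7 and 12 of 21 type I members and 5, 5 and 8 of 17 gamma members, and on resting arrays 8 to 11 and 7 to 12. Over all features the shares were 52.3%, 32.6% and 49.2% on hemophagocytes 2, 3 and 6, so that the low counts on hemophagocyte 3 were near its background. The median difference from a member's own median on hemophagocyte 5 was 0.15 in the type I arm and 0.02 in the gamma arm, and -0.01 over all features. Hemophagocyte 5 held the highest value of 13 of 38 members (34.2%), against 9.92% of all features. Hemophagocyte 3 held 4 (10.5%, against 9.10% of features) and the lowest value of 8 (21.1%, against 33.2% of features). No test of these counts was made, since members on 1 array are not replicates. Hemophagocyte 5 also had the highest value of the macrophage markers Cd68, Adgre1, C1qa, C1qb, C1qc, Cd5l, Hmox1, Vcam1, Mertk, Cd163, Lyz2 and Fcgr1. For Lyz2 the margin was narrow (9.96, against 9.95 on hemophagocyte 3). Csf1r, Slc40a1, Siglec1 and Lyz1 were highest on resting arrays and Marco on hemophagocyte 3. The highest values of Spic and Axl were, as rounded, shared by a hemophagocyte and a resting array. The part of the macrophage markers in these counts was not tested.

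**Figure D3:**
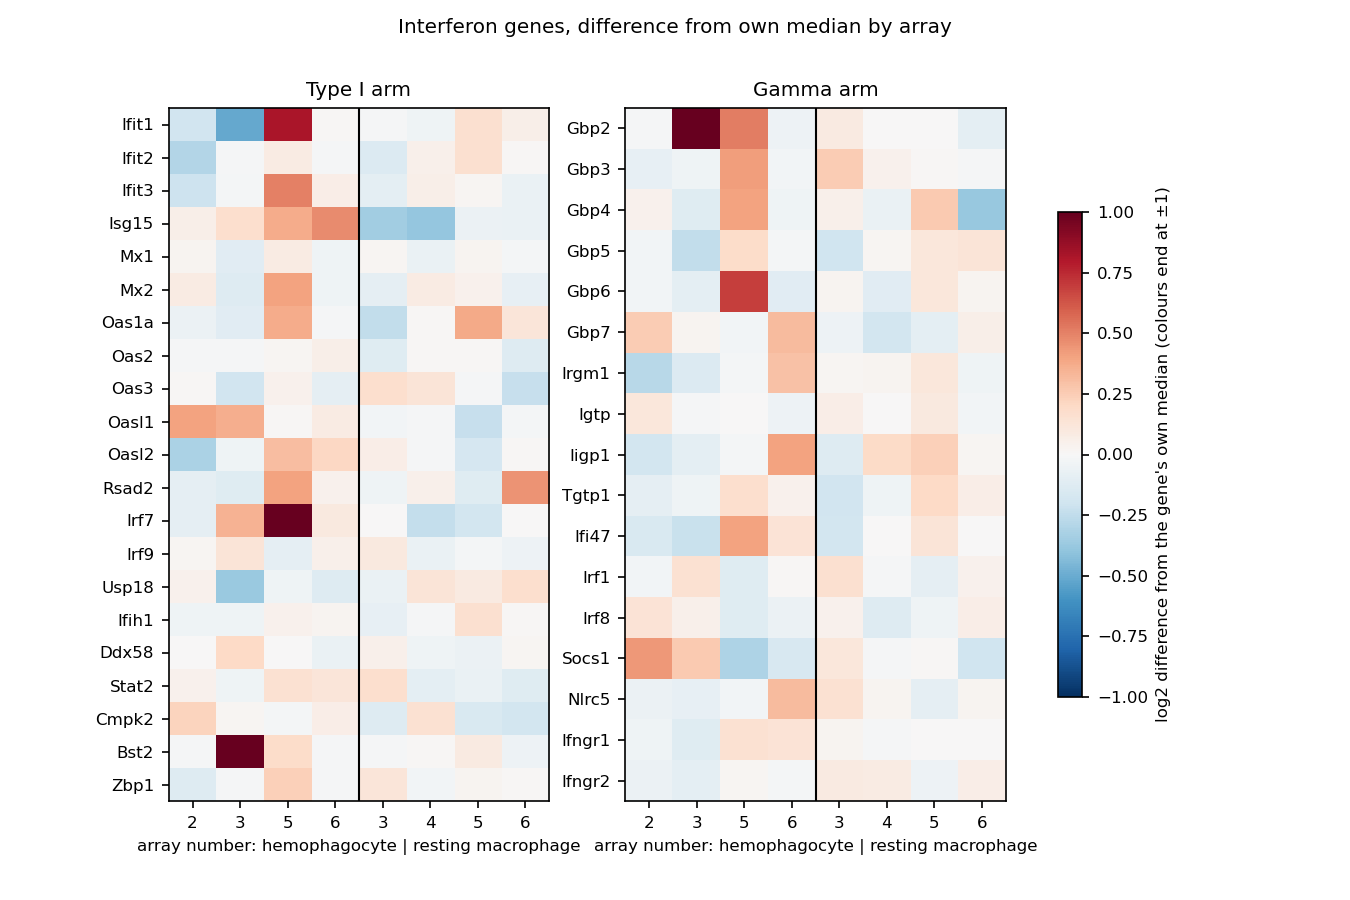
Difference of each interferon gene from its own median over the 8 arrays (log2), with hemophagocytes 2, 3, 5 and 6 left of the line and resting macrophages 3, 4, 5 and 6 right of it. Colours end at 1 log2 unit, which Bst2 and Gbp2 exceeded on hemophagocyte 3 and Irf7 on hemophagocyte 5.

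The highest single values of other known type I and gamma target genes were also on hemophagocytes 3 and 5. Together with the members these genes made 102 probe sets, of which 8 were more than 1 log2 unit above their own median on some array. The 8 include the members Bst2, Gbp2 and Irf7. Of the 8, 4 were on hemophagocyte 3, 4 on hemophagocyte 5 and 0 on any of the other 6 arrays, and no gene was that high on both. On hemophagocyte 3 the antiviral factor Samd9l reached 8.09, against 4.61 to 5.01 on all other arrays, and the T cell chemokine Cxcl9 reached 8.95, against 6.90 to 7.17. On hemophagocyte 5 Trim30a, which dampens Toll-like receptor signalling in mice, reached 8.62, against 6.33 to 6.75, and Ifi27l2a reached 8.27, against 6.77 to 7.41. Ly6e, a membrane protein induced by type I interferon, stood at 6.07, 6.60, 7.20 and 6.10 in hemophagocytes and at 5.92, 5.77, 5.67 and 6.05 in resting macrophages. Its groups were apart by a narrow margin, between 6.07 and 6.05, and 0.815% of features were apart in that direction. Over all features, 0.936% and 0.902% were that high on hemophagocytes 3 and 5, and 0.0868% and 0.178% on hemophagocytes 2 and 6. Of the 8 neutrophil markers, S100a8 and S100a9 were high on hemophagocyte 3, at 8.02 and 9.12. Ly6g, Mpo, Camp and Retnlg had their lowest value of the 8 arrays there, at 5.25, 7.05, 6.69 and 7.29. Ngp and Elane lay there within the range of the other arrays. Of 4 platelet markers, Pf4 was 10.35 on hemophagocyte 3 and 9.11 on hemophagocyte 5, against 5.49 to 7.41 elsewhere. Ppbp had its lowest value (4.80) on hemophagocyte 3, and Itga2b and Gp9 lay there within the range of the other arrays. The background for these lowest values is that hemophagocyte 3 held the lowest value of 33.2% of all features. The part of the macrophage markers in the high values was not tested.

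**Figure D4:**
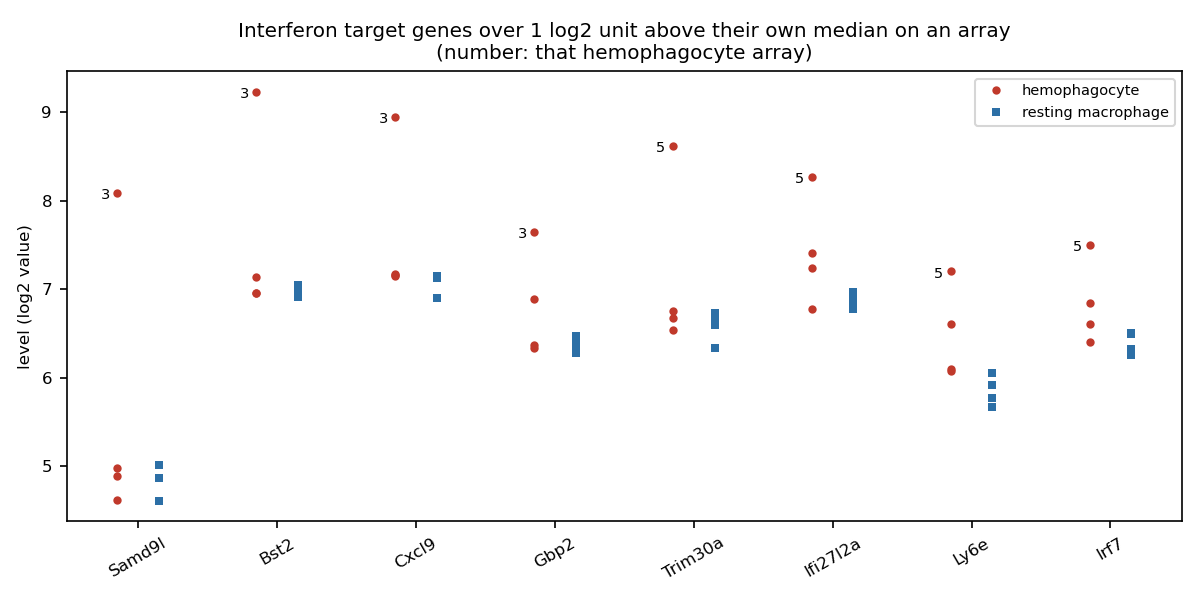
Log2 values of the 8 interferon target genes that exceeded their own median by more than 1 log2 unit on an array, hemophagocytes as circles left of resting macrophages as squares. The numbers beside points name the hemophagocyte array, 3 for Samd9l, Bst2, Cxcl9 and Gbp2, and 5 for Trim30a, Ifi27l2a, Ly6e and Irf7.

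Of 39 measured other type I targets, 0 passed over all features. At an unadjusted p under 0.05 the list had 2 higher genes and 0 lower, against 1.57% and 5.13% of features. These were Ly6e (0.64, SE 0.22, unadjusted p = 0.0146) and Rtp4, a receptor transporter (0.36, SE 0.13). The list's median change was 0.02, and 23 of 39 (59.0%) were above 0, against 36% of features. Of 25 other gamma targets measured apart from the members, 0 passed over all features. At that level 3 were higher and 1 lower, with a median of 0.04 and 14 of 25 above 0. The higher ones encode proteasome parts, Psmb8 (0.47, SE 0.13), Psmb10 (0.38, SE 0.13) and Psme1 (0.17, SE 0.08), and in each the groups did not overlap, against 0.815% of features. The margins were narrow. The lowest hemophagocyte and highest resting values were 6.54 and 6.53 for Psmb8, 6.27 and 6.23 for Psmb10, and 7.68 and 7.66 for Psme1. Psme2 (0.37, unadjusted p = 0.0807) and Psmb9 (0.14, unadjusted p = 0.116), also proteasome genes of the list, did not reach that level. The lower one was Gbp11 (-0.31, SE 0.14).

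Of 35 measured genes upstream of the members, an unadjusted p under 0.05 was found for 2 with higher and 1 with lower values, against 1.57% and 5.13% of features. Of 11 probe sets for interferons and interferon-inducing cytokines, 0 were at that level, and 3 were above 0. Ifna2 (7.90 in each group) and Ifna5 (8.46 in hemophagocytes, 8.41 in resting macrophages) exceeded the receptor 95th percentile on all 8 arrays. The other 9 exceeded it on none. Ifnb1 (4.58 ± 0.16 in hemophagocytes, 4.75 ± 0.14 in resting macrophages) lay below the receptor mean, and Ifng had a change of -0.03 (95% interval -0.26 to 0.21). Of 13 receptors, kinases, factors and inhibitors, 1 higher and 1 lower gene reached that level. Ifnar2, a chain of the type I receptor, stood at 5.68, 5.72, 6.53 and 5.56 in hemophagocytes and at 5.30, 5.67, 5.34 and 5.18 in resting macrophages (change 0.50, SE 0.20). Irf2, a factor that competes with Irf1, averaged 5.63 ± 0.19 in hemophagocytes and 5.96 ± 0.11 in resting macrophages (change -0.33, SE 0.10). Of 11 sensing genes, Traf6, an adaptor of Toll-like receptors, was higher at that level (0.16, SE 0.07), and Tlr9, the receptor of CpG1826, had a change of -0.17 (SE 0.12). None of these passed over all features (0 of 35), and the smallest limma adjusted p among them was 0.74.

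Members next to each other in the genome did not share a pattern throughout. By RefSeq gene positions, 21 members lay in 8 groups of neighbours less than 1 Mb apart. Gbp4 and Gbp6, and Mx1 and Mx2, had their highest value on hemophagocyte 5, as did Ifit1 and Ifit3 but not Ifit2. The probe set for Gbp6 also names Gbp4, so the values of that pair are not wholly separate. For Mx1 the margin was narrow (5.88, against 5.84 on hemophagocyte 2 and resting macrophage 5). Of the neighbours Gbp2, Gbp3, Gbp5 and Gbp7, the highest array was hemophagocyte 3, 5, 5 and 6.

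Members with cores in the promoter windows shown above differed in their array patterns. Of the members shown with overlapping or repeated interferon regulatory factor cores, Isg15 was higher on all 4 hemophagocyte arrays, Ifit1 was high on hemophagocyte 5 and Bst2 on hemophagocyte 3. Ifit3, Oas1a, Oas3, Ifih1, Gbp3, Irgm1 and Socs1, not shown, also hold more than 1 such core in a window. Their changes ran from -0.07 to 0.11, none at an unadjusted p under 0.05. Irf7 and Oasl1, which hold no match in their own windows, were among the 4 members at an unadjusted p under 0.05. The 18 measured genes with such a core had a median change of 0.00 (9 above 0), and the 11 without one had a median of 0.04 (8 above 0).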

How the data were processed

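The 8 arrays were grouped by sample title. The deposited values are log2 values per probe set, judged from their range, and per the submitters' processing notes the software was Affymetrix Expression Console 1.1. The authors' method of background correction, summary and normalization was not given in the sources used here. Per the labels' protocols, the WT-Ovation One-Direct system amplified the RNA of the captured cells.

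The annotation gave 1 symbol for 21797 of 35556 probe sets, several for 1613 and none for 12146, and the brightest probe set stood for each of 20736 distinct annotations. Groups were compared on these values by limma 3.58.1 (R 4.3.3; lmFit and eBayes, no block or filter), with Benjamini-Hochberg adjustment over all 20736 and a threshold of 0.05, after the script was tested on simulated data. No label says that arrays came from separate mice, and p-values therefore cover only the spread among these arrays, which may be technical. For arrays their number limits the precision.

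The members and lists were chosen with earlier results of these data known. Members at an unadjusted p under 0.05, the 6 of smallest p in each arm and those over 1 log2 unit from their own median have their values given on every array, and others were added after their values were seen. Gbp10 and Irgm2 share a member's probe set and were left out of the other gamma targets. Alternatives were 3 normalizations, a filter, a variance trend, array weights, other probe set rules, a background covariate, left out arrays and the replicate number as a block.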

Additional observations from a re-analysis of the deposited data

Results flagged for a closer look

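In 8 of 76 groups of 4 values (38 members in 2 groups), the most distant array stood apart from the others by more than Dixon's critical value, where chance flags about 1 in 20 groups. Among hemophagocytes, Bst2 was 9.23 on hemophagocyte 3 against 6.95 to 7.14 on the others. On hemophagocyte 5, Gbp3 was 6.17 against 5.68 to 5.73, and Gbp6 was 6.13 against 5.33 to 5.42. Nlrc5 was 9.50 on hemophagocyte 6 against 9.09 to 9.14. Among resting macrophages, Stat2 was 6.68 on array 3 against 6.39 to 6.44, and Gbp3 was 6.01 on array 3 against 5.75 to 5.79. Cmpk2 was 5.91 on array 4 against 5.58 to 5.62, and Oasl1 was 7.05 on array 5 against 7.25 to 7.27. Causes were not tested.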

How the results depend on the processing

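No member passed the threshold over all features under any of the 20 alternative settings (0 of 38 in limma, with 4 at an unadjusted p under 0.05 as deposited), and the smallest adjusted p was 0.38, for Isg15 with the replicate number as a block. Leaving out 1 array at a time gave 1 to 3 type I and 0 to 1 gamma members at an unadjusted p under 0.05. Without hemophagocyte 2, hemophagocyte 5 or resting macrophage 3, 1 of the 3 type I members was lower in hemophagocytes and 2 were higher. The type I count was 1 without hemophagocyte 3 or resting macrophage 5, and the gamma count 0 without resting macrophage 3, 4 or 5. The same fits gave 9 to 17 type I and 6 to 12 gamma members above 0, medians of -0.02 to 0.07 in the type I arm and -0.02 to 0.04 in the gamma arm, and a difference of medians of -0.0037 to 0.04. Without hemophagocytes 3 and 5 the type I median was -0.03, the difference of medians -0.02, and the changes of Bst2 (-0.02), Gbp2 (-0.03) and Gbp6 (-0.09) had turned. With the receptor mean as a covariate the medians were 0.11 in the type I arm and 0.05 in the gamma arm, 1 type I member had an unadjusted p under 0.05, and Bst2 (-0.22) and Irgm1 (0.04) had turned. Cyclic loess gave a gamma median of 0.06. With features below the median level left out, which kept 12 type I and 9 gamma members, 7 and 6 were above 0 and 0 gamma members had an unadjusted p under 0.05. With only probe sets that name 1 gene, which kept 12 gamma members, 6 were above 0. With all 35556 probe sets tested singly, 0 gamma members had an unadjusted p under 0.05. Changes near 0 also turned when 1 array was left out, over ranges of -0.18 to 0.01 for Irgm1, -0.01 to 0.20 for Gbp4 and -0.10 to 0.17 for Gbp6. The labels do not say what arrays of the same number share beyond it. Their deviations from the group means correlated at 0.135, 0.046 and 0.12 for numbers 3, 5 and 6. Hemophagocytes 3 and 6 correlated best with the resting array of their own number, and hemophagocyte 5 with resting macrophage 4 (0.131). The highest value of any pair was 0.234, for hemophagocyte 2 and resting macrophage 3. The replicate block gave 0 calls among members, 3 higher and 1 lower type I member and 1 higher gamma member at an unadjusted p under 0.05, and changes of 0.01 for Irgm1 and 0.14 for Gbp7 (unadjusted p = 0.163). Apart from the values that construction explains (fewer arrays or features), the cause was not tested. Values near the receptor genes limit what any of these settings can show.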
